A study of Homo sapiens with 9 samples.

Results

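The splicing factors and hnRNPs described here are 45 genes of pre-mRNA splicing that were chosen by name: 12 SR and SR-like proteins, 12 hnRNPs, 8 subunits of U2AF, SF3A and SF3B, 10 snRNP and PRPF proteins and 3 kinases of SR proteins. All 45 had a probe on the array, out of 19722 genes that could be matched to a symbol, and all 45 were well above background on 9 of 9 arrays, so that each was among the 14680 genes tested. Their 73 probes were all well above background on every array. The cells were ALL-SIL, a single human T-cell acute lymphoblastic leukemia (T-ALL) line that carries a TLX1 rearrangement. They were electroporated with a control siRNA, with PHF6 siRNA1 or with PHF6 siRNA2, grown in serum-supplemented RPMI medium, and profiled as total RNA on Agilent arrays that read 1 colour, with 3 arrays per group. The sample labels give harvest at 96 h in most fields and 72 h in the description field for all 3 groups. The knockdown was transient and the 3 replicates of a group are separate cultures of 1 line, so the values describe this line and not a set of patients.

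Splicing removes introns from pre-mRNA in the spliceosome, which is assembled on each intron from small nuclear ribonucleoproteins (snRNPs) and many further proteins. U1 snRNP recognizes the 5′ splice site, U2AF binds the polypyrimidine tract and the AG of the 3′ splice site, and U2 snRNP with its SF3A and SF3B complexes engages the branch point before the U4/U6.U5 tri-snRNP joins and the catalytic core forms. SR proteins generally promote the use of nearby exons and hnRNPs often oppose it, while the kinases of the CLK and SRPK families phosphorylate SR proteins and set where in the cell they reside. Genes of this machinery, among them SF3B1, U2AF1 and SRSF2, are recurrently mutated in blood cancers. The arrays measured transcript levels at 1 or a few positions per gene and not the splicing of any intron.

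PHF6, the chromatin-associated zinc finger protein that the siRNAs target, was measured first. On the normalized log2 scale its level was 11.07, 11.17 and 10.86 in the control arrays of replicates 1, 2 and 3, 9.39, 9.69 and 9.12 with PHF6 siRNA1, and 9.20, 9.28 and 9.14 with PHF6 siRNA2. All 6 siRNA arrays lay below all 3 control arrays. The log2 fold change of both siRNAs against control was -1.73 ± 0.09 (SE), a 3.32-fold lower level (adjusted p = 8.3e-05, and 0.00248 in the fit without the replicate number). All 10 T lineage markers checked, CD3D, LCK and TLX1 among them, were well above background on all arrays, whereas NCAM1 and HBB were above background on 0 arrays; of the B lineage markers given here, CD79A was measured on all arrays, MS4A1 on 3 and PAX5 on 2. CD7 and PTCRA, 2 of the 10 T lineage markers, and NKG7, 1 of the 2 NK markers, were lower upon knockdown (log2 fold changes of -0.76, -0.73 and -0.43, adjusted p = 0.0125, 0.00838 and 0.0307), and their part in the results below was not tested.

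Upon PHF6 knockdown, no member of the splicing list passed the threshold with both siRNAs against control, in a comparison in which 2.36% of all tested genes did. The differences were small: the log2 fold changes ran from -0.41 to 0.14, with a median size of 0.10 against 0.11 over all tested genes. The lowest adjusted p of a member was 0.0854 by limma. With an intensity trend and a robust prior in the same test, 3 members passed, SRSF11, U2AF1 and SF3B3 (adjusted p = 0.0353, 0.0378 and 0.0433), all lower. At an unadjusted p under 0.05 there were 4 members, SRSF11, SF3B3, U2AF1 and SNRNP70, all lower, beside 19.1% of all tested genes. In the fit with the replicate number, the unadjusted 95% interval of the log2 fold change reached 0.22 to each side for the median member. The interval stayed between -0.5 and 0.5 for 41 of 45 members and for 12477 of 14680 tested genes. The members whose interval went beyond were SRSF7, SRSF11, HNRNPF and U2AF1.

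The point estimates were mostly on the lower side, at 38 of 45 members against 59.0% of all tested genes, with a median log2 fold change of -0.08 for the members and -0.04 for all tested genes. This lean depended on the replicate, and on the scaling in that normexp and quantile normalization removed it. The members then split into 23 lower and 22 higher with a median of -0.01, and the median over all genes was -0.01 as well. With VSN on background-subtracted or processed signal, the 75th percentile scaling and the deposited table, 38, 43, 40 and 38 members were lower. With processed signal the median was -0.14 for the members and -0.10 for all genes. Taken replicate by replicate, the members' median difference of both siRNAs from control was -0.11 in replicate 1, -0.21 in replicate 2 and 0.01 in replicate 3, which was hybridized on a second slide of its own. With PHF6 siRNA2 in replicate 3, 18 members were lower and 27 higher than in the control array. Without replicate 3, that is on the first slide alone, the median was -0.15.

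**Figure D1:**
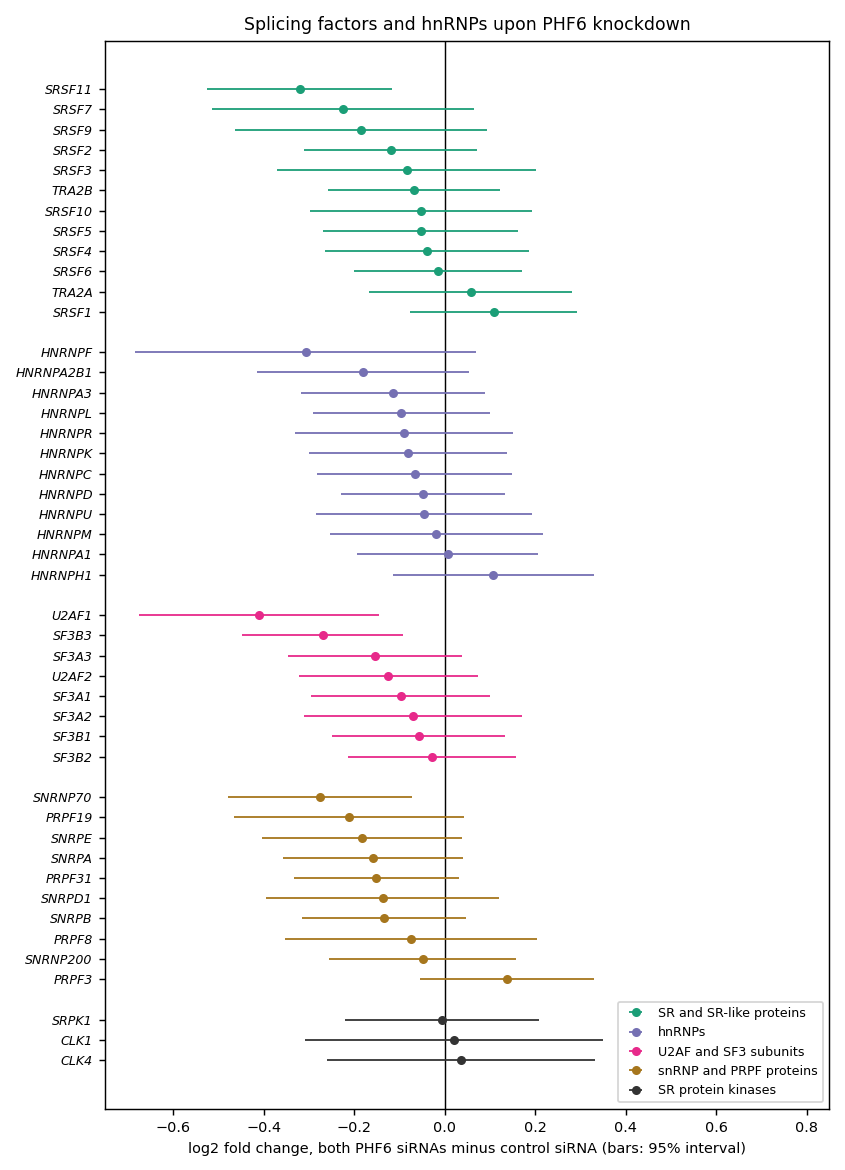
Log2 fold change of each of the 45 genes, mean of both PHF6 siRNAs minus control siRNA, on the x axis, with genes on the y axis ordered within their role; points are estimates of the limma fit and bars the 95% intervals, colours mark the roles. The estimates lie between -0.41 for U2AF1 and 0.14 for PRPF3, and 41 intervals stay between -0.5 and 0.5.

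Compared array by array with the control of the same replicate number, 9 members were lower in all 6 siRNA arrays, as were 14.1% of all tested genes, and 2 members were higher in all 6, as were 7.33% of all tested genes. All 9 belonged to the core of the spliceosome: 4 of 8 U2AF and SF3 subunits (U2AF1, SF3B3, SF3A3 and U2AF2) and 5 of 10 snRNP and PRPF proteins (SNRNP70, SNRPE, SNRPA, PRPF31 and SNRPB). Among the regulators, 0 of 12 SR and SR-like proteins, 0 of 12 hnRNPs and 0 of 3 kinases were lower in all 6. This split was that of the brightest probe per gene and did not hold over all probes. A further probe each of SRSF7, HNRNPA2B1, HNRNPA3 and HNRNPK was lower in all 6, at -0.11, -0.24, -0.19 and -0.22. Conversely, the further probes of SNRPE and the second probe of SF3B3 were not, whereas the second probe of PRPF31 was. The count of 9 was between 7 and 11 under the other ways of normalizing, with the exception of normexp and quantile normalization, where it was 3.

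**Figure D2:**
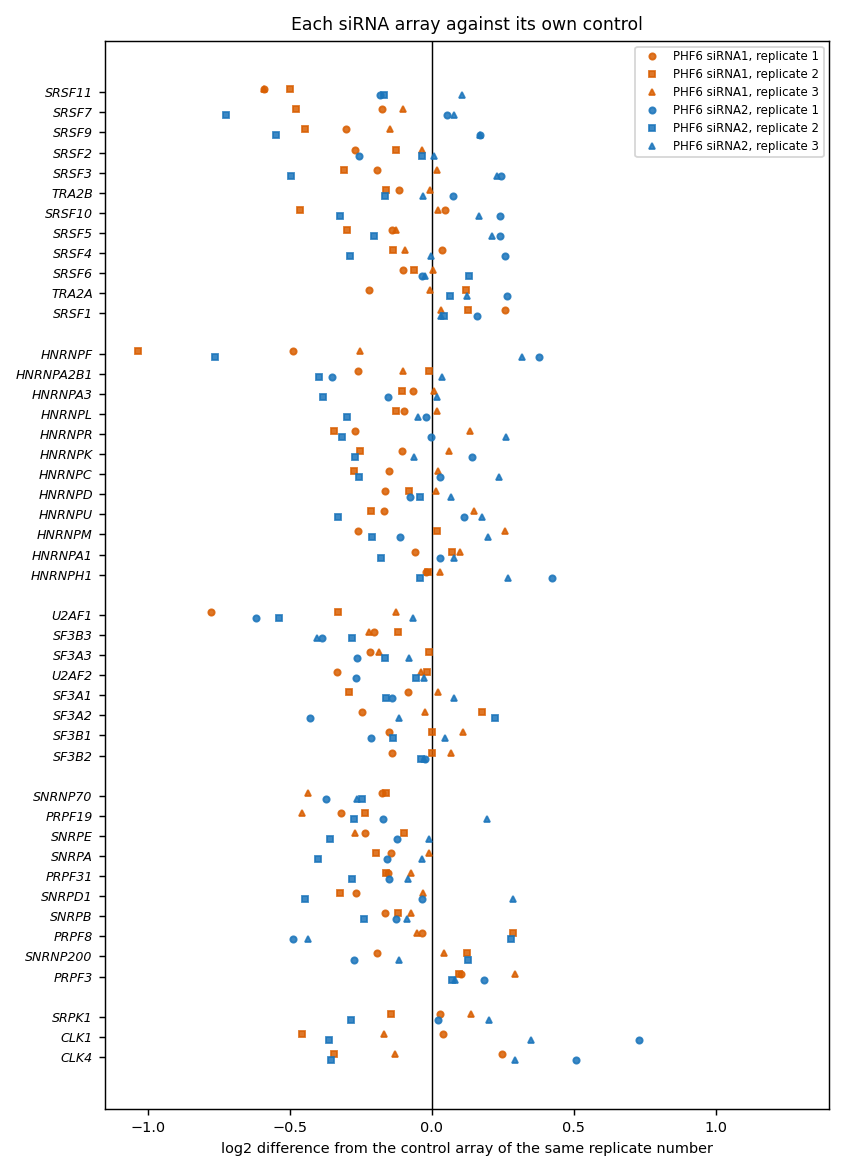
Log2 difference of each PHF6 siRNA array from the control array with the same replicate number (x axis) for the 45 genes (y axis, grouped by role); colours mark the siRNA and symbols the replicate. The points of 9 core genes, U2AF1 at the top of the third block and SNRNP70 at the top of the fourth among them, are all left of 0, and those of SRSF1 and PRPF3 are all right of 0.

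Among the U2AF and SF3 subunits all 8 estimates were on the lower side, with a median log2 fold change of -0.11, and none passed the threshold. U2AF1 encodes the small subunit of U2AF, which reads the AG at the 3′ splice site. Its level was 16.36, 16.07 and 15.59 in the control arrays, 15.58, 15.74 and 15.46 with PHF6 siRNA1 and 15.74, 15.53 and 15.52 with PHF6 siRNA2. Control replicates 1 and 2 stood above all siRNA arrays, but control replicate 3 lay within them, so the groups overlapped. The log2 fold change was -0.41 ± 0.12 (SE), the largest in size among the members (adjusted p = 0.089, and 0.654 without the replicate number). Leaving out control replicate 3 gave -0.57 with an adjusted p of 0.043, and leaving out control replicate 1 gave -0.27 with an adjusted p of 0.408. The estimate was -0.41 with siRNA1 and -0.41 with siRNA2, but both are taken against the same control arrays, so they are not independent. With siRNA1 and siRNA2 the differences from the own control were -0.78 and -0.62 in replicate 1. They were -0.33 and -0.54 in replicate 2 and -0.13 and -0.07 in replicate 3.

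SF3B3 is a scaffold subunit of the SF3B complex at the branch point. Its brightest probe gave 12.32, 12.42 and 12.72 in control, 12.11, 12.29 and 12.50 with PHF6 siRNA1 and 11.93, 12.13 and 12.31 with PHF6 siRNA2. Each siRNA array was below its own control, while the groups overlapped, with replicate 3 the highest in every group. The log2 fold change was -0.27 ± 0.08 (adjusted p = 0.093). A second, dimmer probe to the same transcript gave 7.96, 8.32 and 8.11 in control, 7.83, 8.31 and 8.36 with siRNA1 and 8.09, 8.28 and 8.08 with siRNA2, a log2 fold change of 0.03 ± 0.10, so the lower level was seen with its brighter probe alone. SF3B1, the SF3B subunit mutated in leukemia, gave -0.06 ± 0.09 (adjusted p = 0.737), and SF3A1, SF3A2 and SF3B2 gave -0.10, -0.07 and -0.03. SF3A3 and U2AF2, the large U2AF subunit that binds the polypyrimidine tract, were lower in all 6 arrays by small amounts, with log2 fold changes of -0.15 ± 0.09 and -0.12 ± 0.09 and adjusted p of 0.326 and 0.446.

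The promoters of the members were also read, since the choice of genes did not use them. Promoters were read from RefSeq on GRCh38.p14 as the 250 bases before the gene's first listed start, for the 39 of 45 members with an entry, and 5 short motifs were searched on both strands. ACTTCCGG, a motif of ETS transcription factors, was present in 10 of 39 members, 25.6%, against 3.42% of all 35116 promoters and 6.60% of the tested genes with an entry. It was found in 7 of 15 U2AF, SF3, snRNP and PRPF genes and in 3 of 24 SR, hnRNP and kinase genes. The members lower in all 6 siRNA arrays all belong to these U2AF, SF3, snRNP and PRPF genes. Of the 8 with an entry 4 held the motif, beside 7 of 15 in that set, and a link to the change was not tested. The GC box GGGCGG was in 22 of 39 members (56.4%, against 42.6% of all promoters and 62.0% of tested genes), CCAAT in 12 (30.8%, against 32.0% of all promoters and 35.4% of tested genes), CACGTG in 5 (12.8%, against 6.34% and 8.51%) and TATAAA in 4 (10.3%, against 10.7% and 6.97%). None of the 5 motifs contains another, and their presence is a description of these windows and not of any binding.

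Such windows are shown for genes that were lower in all 6 siRNA arrays, U2AF1 without the ETS-type motif and U2AF2 and SF3A3 with it. They lie at chr21:43107571-43107820 (minus strand), chr19:55654785-55655034 (plus strand) and chr1:37990023-37990272 (minus strand) of GRCh38.p14 and are written 5′ to 3′ along the gene, with every match to ACTTCCGG or GGGCGG or their reverse complements in capitals.
U2AF1: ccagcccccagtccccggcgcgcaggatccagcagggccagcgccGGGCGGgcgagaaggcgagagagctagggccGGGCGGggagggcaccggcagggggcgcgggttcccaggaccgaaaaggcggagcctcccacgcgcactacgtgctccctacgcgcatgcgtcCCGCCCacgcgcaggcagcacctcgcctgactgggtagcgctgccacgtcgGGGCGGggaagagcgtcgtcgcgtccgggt
U2AF2: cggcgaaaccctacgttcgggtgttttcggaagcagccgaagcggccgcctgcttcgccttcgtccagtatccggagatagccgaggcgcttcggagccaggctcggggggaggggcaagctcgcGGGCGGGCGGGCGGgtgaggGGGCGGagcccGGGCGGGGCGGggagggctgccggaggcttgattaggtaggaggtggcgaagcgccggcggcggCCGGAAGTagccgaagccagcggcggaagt
SF3A3: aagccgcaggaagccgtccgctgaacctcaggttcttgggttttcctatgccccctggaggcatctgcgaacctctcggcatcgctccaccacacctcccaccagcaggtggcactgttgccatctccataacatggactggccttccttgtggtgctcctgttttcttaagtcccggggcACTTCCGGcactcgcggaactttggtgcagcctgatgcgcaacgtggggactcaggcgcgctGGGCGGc
GC made up 75.6% of the U2AF1 window, 72.4% of the U2AF2 window and 61.6% of the SF3A3 window, against a median of 64.8% over the 39 members and 63.6% over the tested genes with an entry.

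Among the snRNP and PRPF proteins 9 of 10 estimates were on the lower side with a median log2 fold change of -0.14, and none passed the threshold. SNRNP70 encodes the U1-specific protein that binds U1 snRNA and contacts SR proteins. It was measured at 11.18, 11.31 and 11.58 in control, 11.01, 11.15 and 11.14 with PHF6 siRNA1 and 10.81, 11.07 and 11.32 with PHF6 siRNA2. Of the siRNA arrays, replicate 3 of siRNA2 alone lay within the control range, and the log2 fold change was -0.28 ± 0.09 (adjusted p = 0.121). SNRPE, one of the Sm proteins that form the ring on spliceosomal snRNAs, was tight in control at 14.02, 14.04 and 14.01 and read 13.79, 13.94 and 13.74 with PHF6 siRNA1 and 13.90, 13.68 and 14.00 with PHF6 siRNA2. All 6 siRNA arrays were below all 3 control arrays, by a log2 fold change of -0.18 ± 0.10 that missed the threshold (adjusted p = 0.313). All 4 SNRPE probes had an estimate below 0, from -0.07 to -0.18. With each of the dimmer probes, however, the siRNA arrays overlapped control, and those of replicate 3 were above their own control.

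The U1 protein SNRPA and the Sm protein SNRPB gave -0.16 and -0.14, with adjusted p of 0.331 and 0.362. PRPF31, which is needed to form the tri-snRNP and is mutated in retinitis pigmentosa, gave -0.15 and -0.19 with its 2 probes. PRPF19, the ubiquitin ligase of the Prp19 complex, gave -0.21 ± 0.11 (adjusted p = 0.308) and was higher than its control in 1 of 6 arrays. PRPF8 and SNRNP200, the large U5 proteins at the catalytic center, gave -0.07 and -0.05.

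PRPF3 of the U4/U6 snRNP was 1 of the 2 members higher in all 6 siRNA arrays. It was measured at 10.13, 10.22 and 10.04 in control, 10.24, 10.32 and 10.33 with PHF6 siRNA1 and 10.32, 10.29 and 10.12 with PHF6 siRNA2. Replicate 3 of siRNA2 overlapped the control range and the other siRNA arrays were above it. The log2 fold change was 0.14 ± 0.09, which did not pass the test (adjusted p = 0.38).

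SR and SR-like proteins had a median log2 fold change of -0.06, with 10 of 12 estimates below 0, and none passed the threshold with both siRNAs. With PHF6 siRNA1 alone, 1 of the 45 members was called: SRSF11, an SR-related protein that associates with U2AF, was lower, in a comparison in which 0.838% of all tested genes passed. Its brightest probe, to transcript NM_001190987, gave 13.57, 13.82 and 13.49 in control, 12.98, 13.33 and 12.90 with PHF6 siRNA1 and 13.39, 13.65 and 13.60 with PHF6 siRNA2. All 3 siRNA1 arrays were below all control arrays, and the siRNA2 arrays overlapped control. The log2 fold change was -0.56 ± 0.11 with siRNA1 (adjusted p = 0.0461, and 0.755 without the replicate number) and -0.08 with siRNA2 (adjusted p = 0.715).

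The call was close to the threshold and rested on that probe. The other 2 SRSF11 probes, both to NM_004768, gave -0.12 and -0.01 with siRNA1 and 0.17 and 0.11 with siRNA2. The first of them read 13.00, 13.65 and 12.89 in control and 13.02, 13.34 and 12.80 with siRNA1, and the second 12.92, 13.13 and 12.59 in control and 12.88, 13.18 and 12.54 with siRNA1, so that for both the groups overlapped. The mean over the 3 probes was -0.23 with an adjusted p of 0.298. When each of the 3 replicate numbers or 9 arrays was left out in turn, the call held in 1 of 12 fits, the one without PHF6 siRNA2 replicate 3, while the estimate stayed between -0.61 and -0.50. Whether the probes read different transcript forms of SRSF11 was not tested.

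**Figure D3:**
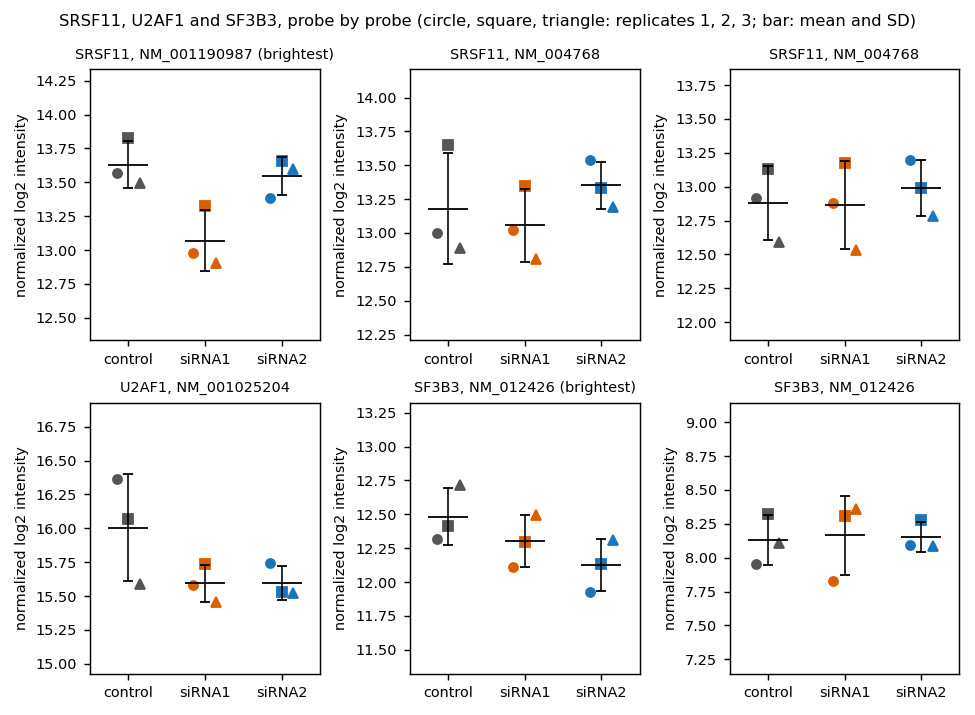
Normalized log2 intensity (y axis, each panel spanning 2 log2 units) by siRNA group (x axis) for the 3 probes of SRSF11, the probe of U2AF1 and the 2 probes of SF3B3; symbols are single arrays by replicate number and bars the mean with SD of 3 arrays. The siRNA1 arrays sit below control with the first SRSF11 probe and overlap control with its other probes.

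SRSF1, the founding SR protein, was the other member higher in all 6 siRNA arrays. Its level was 9.98, 10.20 and 10.06 in control, 10.23, 10.33 and 10.09 with PHF6 siRNA1 and 10.14, 10.24 and 10.09 with PHF6 siRNA2. The groups overlapped, the log2 fold change was 0.11 ± 0.08 (adjusted p = 0.478), and with VSN on the processed signal it was -0.0018. SRSF2, mutated in myeloid neoplasms, gave -0.12 ± 0.09, and SRSF3, SRSF7 and SRSF9 gave -0.08, -0.23 and -0.18, the last with an adjusted p of 0.422. TRA2A and TRA2B, the sequence-specific activators related to fly Transformer-2, gave 0.06 and -0.07.

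The hnRNPs had a median log2 fold change of -0.07, 10 of 12 estimates below 0 and none past the threshold. HNRNPA1, an abundant repressor of exon inclusion, read 16.65, 16.81 and 16.61 in control, 16.59, 16.88 and 16.71 with PHF6 siRNA1 and 16.68, 16.63 and 16.69 with PHF6 siRNA2. These arrays overlapped throughout, and the log2 fold change was 0.01 ± 0.09 (95% interval -0.19 to 0.21). HNRNPF, which binds G-rich tracts, had the lowest estimate of the group at -0.31 ± 0.17 (adjusted p = 0.319) and the most scattered arrays. It read 12.91, 13.32 and 12.61 in control, 12.43, 12.29 and 12.36 with PHF6 siRNA1 and 13.29, 12.56 and 12.93 with PHF6 siRNA2. The siRNA1 arrays were below all control arrays and the siRNA2 arrays overlapped control (log2 fold changes of -0.59 and -0.02, adjusted p = 0.153 and 0.961). HNRNPH1, its close relative, gave 0.11, and HNRNPA2B1 gave -0.18 ± 0.10 (adjusted p = 0.343).

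Among the kinases of SR proteins, SRPK1 gave -0.01 ± 0.10, CLK1 0.02 ± 0.15 and CLK4 0.04 ± 0.13, and none passed the threshold. CLK1 spread widely over the arrays, which is described with the replicate numbers below.

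With PHF6 siRNA2 alone, no member passed the threshold (1.51% of all tested genes did), and 3 members, SF3B3, U2AF1 and SNRNP70, were at an unadjusted p under 0.05, beside 17.0% of all tested genes. With PHF6 siRNA1 alone, 5 members were, SRSF11, HNRNPF, U2AF1, PRPF19 and SNRNP70, beside 17.2%. The siRNAs were also set against each other. No member differed between siRNA2 and siRNA1 (0.0341% of all tested genes did by limma), and SRSF5, SRSF11, HNRNPF and CLK1, all higher with siRNA2, were at an unadjusted p under 0.05, beside 9.07% of all tested genes. The largest differences were 0.57 for HNRNPF, 0.48 for SRSF11 (95% interval 0.24 to 0.71, adjusted p = 0.246) and 0.43 for CLK1. The median SR and SR-like protein was 0.12 higher with siRNA2, against a median of 0.03 over all tested genes. On that side were 11 of 12 of them, 26 of all 45 members and 8439 of 14680 tested genes. This was not particular to SR proteins, since 19 of 23 factors of the Prp19 complex and the catalytic steps, from the further list below, were on that side too. Both siRNAs are compared with the same control arrays. For no member were all 3 arrays of one siRNA above their controls and all 3 of the other below, which was so for 1.07% of all tested genes.

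The members varied between replicate numbers as well, each of which holds 1 array of every group. In the F test of the replicate number 7 of 45 members passed the threshold, below the 33.9% of all tested genes that did. They were 4 SR and SR-like proteins (TRA2B, SRSF6, SRSF2 and SRSF3), SF3A2, SF3B3 and CLK1. No hnRNP and no snRNP or PRPF protein was among them. With their brightest probe, these 4 SR and SR-like proteins had their highest mean in replicate 3. The means of a member's 3 replicate numbers lay a median of 0.22 log2 units apart from highest to lowest, and 0.31 for all tested genes.

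TRA2B had the largest F with its brightest probe, 14.8 (adjusted p = 0.00889 by limma). This probe read 13.73, 13.62 and 13.81 in the control, siRNA1 and siRNA2 arrays of replicate 1, 13.99, 13.82 and 13.82 in those of replicate 2 and 14.25, 14.25 and 14.22 in those of replicate 3, so that all arrays of replicate 3 were above all others. Its second, dimmer probe to the same transcript, NM_004593, had means of 12.39, 12.56 and 12.21 in replicates 1, 2 and 3, so that replicate 3 was the lowest with it (F = 5.59, adjusted p = 0.0614). CLK1, the kinase whose own transcript is known to be spliced in response to stress and temperature, had an F of 14.2 (adjusted p = 0.00968). It read 11.11, 11.15 and 11.84 in replicate 1, 12.42, 11.96 and 12.06 in replicate 2 and 11.29, 11.12 and 11.64 in replicate 3. Replicate 2 was the highest in each group. This held for its second probe, to NM_001162407, as well, with 10.41, 10.72 and 10.53 in replicate 2 against 9.34 to 9.61 in the other arrays (F = 72.3, adjusted p = 0.000621).

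SF3A2, a subunit of SF3A, had an F of 9.98 (adjusted p = 0.0199), with 12.45, 12.43 and 12.34 in replicate 3 below all arrays of replicates 1 and 2, which ran from 12.71 to 13.14. Replicate 3 was alone on its slide, so for TRA2B and SF3A2 the slide and the culture cannot be told apart, whereas replicates 1 and 2 shared a slide and the higher CLK1 of replicate 2 was seen within it. At the other end, SNRPE and TRA2A had the smallest F, 0.0389 and 0.0468. TRA2A ran from 8.89 to 9.38 over the 9 arrays, with an SD of 0.0061 among the 3 control arrays. Without replicate 3 the F of the brightest TRA2B probe was 1.98 and that of SF3A2 0.235, and without replicate 2 the F of CLK1 was 0.0355, so that 1 replicate number decided each of these values.

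**Figure D4:**
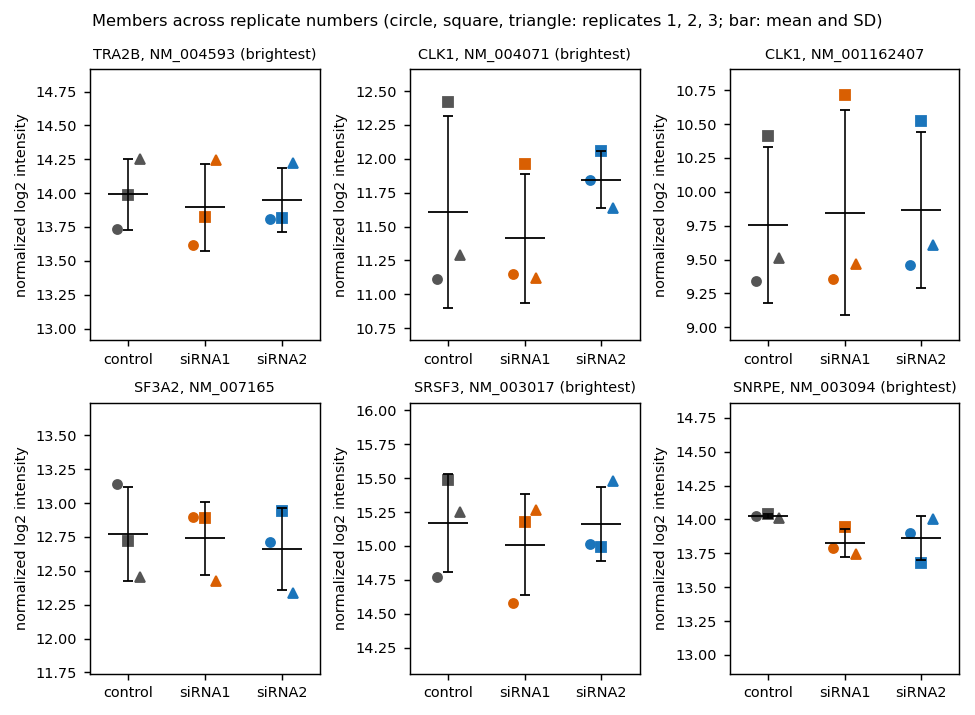
Normalized log2 intensity (y axis, each panel spanning 2 log2 units) by siRNA group (x axis) for the brightest probe of TRA2B, CLK1 with 2 probes, SF3A2, SRSF3 and SNRPE; symbols mark replicates 1, 2 and 3 and bars the mean with SD of 3 arrays. The squares of replicate 2 are the highest CLK1 arrays in every group, the triangles of replicate 3 the highest TRA2B and lowest SF3A2 arrays, and SNRPE shows no such order.

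Of the 45 genes, 20 had several probes, 48 in all. For 11 of these genes all probes had an estimate on the same side of 0 with both siRNAs, and for 9 they did not (HNRNPA1, HNRNPA3, HNRNPD, HNRNPU, SF3B3, SRSF10, SRSF11, SRSF6 and TRA2B). No further probe of a member passed the threshold in any of the 4 comparisons. The probes of SRSF6, which is autoregulated by splicing, differed in transcript: that to NM_006275 gave -0.01 ± 0.08, and that to the non-coding NR_034009 gave 0.18 ± 0.11 (adjusted p = 0.355).

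A further list of 95 splicing genes outside the 45 was set beside them, of which 94 had a probe and 91 were tested. A single gene passed the threshold with both siRNAs, beside 2.36% of all tested genes, and none with either alone. It was HNRNPAB, an RNA- and DNA-binding relative of HNRNPD. It read 11.72, 11.56 and 11.85 in control, 11.32, 11.11 and 11.23 with PHF6 siRNA1 and 11.18, 11.23 and 11.49 with PHF6 siRNA2. All 6 siRNA arrays were below all 3 control arrays, and the log2 fold change was -0.45 ± 0.09 (adjusted p = 0.0381, and 0.617 without the replicate number). The call was kept in 1 of 12 fits that each left out a replicate number or an array, with estimates from -0.49 to -0.40. Of the 91 genes, 70 had an estimate on the lower side (59.0% of all tested genes did), with a median of -0.07. Lower in all 6 arrays were 14 of the 91, as were 14.1% of all tested genes, whereas HNRNPH3 was the only one higher in all 6. The 14 came from every role: 5 of 28 snRNP proteins and 3 of 23 factors of the Prp19 complex and the catalytic steps. The others were 2 of 7 SR-related proteins, 2 of 16 hnRNP-type proteins and 2 of 17 other regulators. The split between core and regulators seen in the 45 was thus not repeated here. The snRNP proteins LSM7, EFTUD2 and SNU13, among the 14, gave -0.25, -0.24 and -0.20. PTBP1, the polypyrimidine tract binding repressor, was also lower in all 6, at -0.20.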

How the data were processed

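The authors hybridized Cy3-labelled cRNA of 9 ALL-SIL samples, 3 per group, to Agilent arrays and deposited 1 scanner file per array with spot intensities (Feature Extraction 10.5.1.1 per the file headers, 9.1 per the submitters' processing notes) and 1 table of VSN-normalized log2 values. The intensities are the deposited median spot signals without background subtraction, and the well-above-background and outlier flags are also as deposited. Here outlier spots were left out, spots of a probe averaged, and the signals normalized by variance stabilization (VSN, 7 rounds, 0.9 trimming) in R 4.3.3, written out from the published model since the package was absent; the result correlated with the deposited log2 table at 0.994 to 0.999 per array. Probes took their symbol through their RefSeq or Ensembl accession: 57176 probes in all, 33595 tested after requiring the flag on 3 of 9 arrays.

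The main test was limma 3.58.1 with group and replicate number as terms over all tested probes, Benjamini-Hochberg adjustment over all of them and a threshold of 0.05; each gene is represented by its brightest probe. The replicate number was used because the groups were to be followed paired by it, and each number holds 1 array of every group. Same-numbered arrays of different groups also deviated together from their group means (r from 0.311 to 0.745 in 9 pairs). In 18 pairs of different number r ran from -0.569 to 0.134. Centring on means of 3 arrays ties these values to the former, so they are no separate evidence. No label says that a number marks a shared day or batch. All tested probes gave 919 calls with both siRNAs, 623 of them higher, and 3 without the replicate number. The arrays had 29694 to 33746 probes well above background, 0 saturated spots and no identical pair (r at most 0.996). In replicate 3 the siRNA1 and siRNA2 arrays correlated less with the deposited table, at 0.9936 and 0.9944, against 0.99869 or more for the others. With background subtraction both were at 0.9989. The number of arrays limits the precision. In bulk RNA, fewer cells of a type and less RNA per cell cannot be told apart.

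Members, lists, role groups, motifs and tests were chosen with earlier results of these data known. Named are members past the threshold in any comparison, those with the largest estimates (up to 4 each way) that were lower or higher than their own control in all 6 siRNA arrays, the 3 with the largest and 2 with the smallest F of the replicate number, other splicing genes past the threshold, and PHF6; other genes are named as examples of their role and were picked after their values were seen. The test was tried on simulated data. Differences between genes in level are not compared, as probes differ in brightness. siRNA1 and siRNA2 are named as labelled; which product each is was not given in the sources used here. A B lineage marker of the fixed list is not reported here.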

Additional observations from a re-analysis of the deposited data

How the results depend on the processing

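Results were recomputed under up to 12 other settings and, in 12 more fits, with each replicate number or single array left out. PHF6 passed the threshold in all 24 fits, with log2 fold changes from -1.84 to -1.61. The members' median log2 fold change, -0.08 in the main fit, ran from -0.15 to -0.01 in the 24. It moved by less than its SD over the 3 replicate numbers (0.11) in all of them. That SD is larger than the median itself, so a loss of the lean would also have stayed within it, and stability cannot be read from this. Without the replicate block, 0 members were called in any of the 4 comparisons and 0 other splicing genes with both siRNAs.

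With both siRNAs the member count of 0 became 3 with an intensity trend and robust prior (SRSF11, SF3B3 and U2AF1) and ran from 0 to 1 on leaving arrays out. With siRNA2 it was 1 with that prior and 0 in every other fit, and between the siRNAs 0 in all fits. With siRNA1 the count of 1 became 0 without the replicate block, with the slide as block, with VSN on background-subtracted or processed signal, with the 75th percentile scaling, with no filter on dim probes, with the mean over probes and with outlier spots kept, and ran from 0 to 1 on leaving arrays out. The count of members that differ between replicate numbers, 7, became 2 with VSN on processed signal and with no filter, 4 with the percentile scaling and with the mean over probes, 12 with the robust prior and 14 with normexp and quantile normalization, and ran from 1 to 8 on leaving arrays out; without replicate 3 it was 1. The single call among other splicing genes became 0 without the replicate block, with the slide as block, with VSN on processed signal, with the percentile scaling and with no filter, became 2 with normexp and with the robust prior, and ran from 0 to 1 on leaving arrays out. SRSF1 reversed to -0.0018 with VSN on processed signal. The count of members higher than their own control in all 6 arrays, 2, ran from 0 to 3, and that of members lower in all 6 from 3 to 11; the alternatives for these counts were chosen after seeing the data. The causes were not tested. With 3 arrays per group, the unadjusted 95% interval of the median member reached 0.22 to each side. Passing the adjusted threshold took more than this. U2AF1 at -0.41 and SRSF11 at -0.32 were not called with both siRNAs (adjusted p = 0.089 and 0.0854 by limma). Log2 differences of this size or smaller can thus have been missed.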
